A study of Mus musculus with 10 samples.

Results

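Mediator, cohesin, condensin and the proteins Ctcf, Ctcfl, Yy1 and Ldb1 were followed at the RNA level through the reprogramming of mouse embryonic fibroblasts. The rule for the members uses gene symbols and no measured value: every symbol of the form Med plus a number, with or without a final l, and a list of named subunits and regulators. The rule found 58 genes of the 45706 in the tables. They were 33 Mediator genes, 13 genes of cohesin and its regulators, 8 condensin genes and 4 genes of architectural and looping proteins. The cohesin release factor Wapl is listed under its older symbol Wapal.

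Poly(A) RNA was sequenced from 5 groups of 2 libraries each. The fibroblasts (MEF) had the genotype OKSM Col1a1/M2rtTA ROSA26 on the strain C57BL/6 x 129. They carry a doxycycline-inducible cassette of Oct4, Klf4, Sox2 and Myc in the Col1a1 locus and the transactivator M2rtTA in the Rosa26 locus. The MEF libraries came from unsorted cells in MEF medium with no doxycycline. The day 3, day 6 and day 9 libraries came from cells of the same strain and genotype in ESC medium with doxycycline at 1 µg/ml and ascorbic acid at 50 µg/ml. Day 3 cells were unsorted, and those of day 6 and day 9 were sorted as positive for the surface antigen SSEA1. The embryonic stem cells (ESC) were the line V6.5, also C57BL/6 x 129, with V6.5 given as the genotype, grown unsorted in ESC medium on irradiated feeder cells. Medium, doxycycline, with it the cassette, and ascorbic acid change together between MEF and day 3, time and sorting change together between day 3 and day 6, and ESC are 1 line. The number of embryos behind the fibroblasts is not stated. The labels do not say that the 2 libraries of a group came from separate cultures, so p-values measure only the spread between these libraries.

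Mediator is a large complex that connects transcription factors at enhancers with RNA polymerase II. Its head and middle contact the polymerase, its tail contacts activators, and a detachable kinase module (Cdk8 or Cdk19, cyclin C, Med12 and Med13 or their paralogs) regulates it. Cohesin is a ring that extrudes DNA loops in interphase and holds sister chromatids together, and Ctcf bound to DNA stops it at loop anchors. Condensin is a related ring complex that compacts chromosomes in mitosis. In pluripotent cells, Mediator and cohesin are known to occupy the enhancers and promoters of active pluripotency genes together.

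Libraries held 29585876 to 38275024 estimated reads. Reads of the 58 genes made up 0.283% and 0.284% of the MEF libraries and 0.44% to 0.517% of the other 8. Markers of fibroblasts and feeder cells (13 genes, from Col1a1 to Prrx1) summed to 58659 and 56314 CPM (TMM-scaled read counts, relative to a common library total) in MEF, 4736 and 4767 at day 3, 773 and 739 by day 6, 601 and 572 by day 9, and 7978 and 8106 in ESC. Lum, one of them, was at 0 in both day 9 libraries. Pluripotency markers (9 genes) summed to 176 and 171 CPM in MEF, at most 639 by day 9, and 5051 and 5188 in ESC. Klf2 alone gave 170.3 and 165.9 CPM of the MEF sums and was lower in ESC, at 120.5 and 123.3, whereas the other 8 rose in ESC over MEF. Pou5f1, the gene of Oct4 that the cassette also carries, gave 223.7 and 242.9 CPM at day 3 and 271 and 278.4 by day 9. Sex-linked transcripts separated the groups. The Y-linked gene Ddx3y was at 90.6 and 86.4 CPM in MEF, at most 0.176 in the day 3 to day 9 libraries, and 26.1 and 26.8 in ESC, whereas Xist was at 0.739 and 0.793 CPM in MEF, 929.6 to 1317 from day 3 to day 9, and 11.3 and 9.0 in ESC. The fibroblasts profiled before induction therefore did not match the induced cells in sex-linked expression, and in the comparison of day 3 with MEF induction and cell source cannot be told apart.

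All 58 members passed the filter on low counts. The 5 comparisons below were tested with the quasi-likelihood test of edgeR. A gene was counted as higher or lower at a Benjamini-Hochberg adjusted p under 0.05, over the 20165 genes tested, and at least a 2-fold change (a log2 fold change of 1). "Rose" and "fell" are kept for genes past both. In bulk RNA, fewer cells expressing a gene and less of its RNA per cell cannot be told apart.

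Few members changed 2-fold at any step, and of the 7 that rose at day 3, 6 were condensin or cohesion establishment genes. From MEF to day 3, 7 members rose (14.6% of all tested genes did) and 1 fell (14.5%), against 29.1% of tested genes in either direction. From day 3 to day 6 no member rose (9.26%) and 1 fell (10.2%, and 19.5% in either direction). From day 6 to day 9 no member passed in either direction, where 5.18% of tested genes were higher, 2.68% lower and 7.87% either. ESC compared with day 9 had 2 members higher (18.6%) and 2 lower (14.3%), with 32.9% of tested genes in either direction. ESC compared with MEF had 12 higher (25.5%) and none lower (20.6%), with 46.1% in either direction. In the comparisons with a count of 0 no member's log2 fold change reached 1 in that direction, so the count at an unadjusted p under 0.05 was 0 as well, and DESeq2 and limma also gave 0. The 2-fold shares of the members were thus below those of all genes in every comparison and direction. For rises at day 3 the gap was small, with 7 of 58 members against 14.6% of all genes. It was also small for rises in ESC over MEF, with 12 of 58 against 25.5%. Whether the members' shares differ from those of all genes was not tested.

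Changes smaller than 2-fold were common. With the adjusted p alone, day 3 had 37 members above and 9 below MEF, against 35.4% and 29.5% of all tested genes (64.9% in either direction). For day 6 with day 3 the counts were 27 and 7 (29.2% and 27.3% of all genes, 56.5% either). For day 9 with day 6 they were 10 and 15 (15.7%, 18.9% and 34.6%), and for ESC with day 9 they were 15 and 24 (36.1%, 33.5% and 69.6%). ESC with MEF gave 36 and 12 (40.4%, 36.2% and 76.6%). The members' median log2 fold change was 0.41 at day 3 with MEF, where that of all tested genes was 0.08. It was 0.11, -0.01, -0.03 and 0.23 in the later comparisons, where all tested genes had 0.03, 0.00, 0.01 and 0.10. The 2 comparisons with MEF share its libraries, as do the 2 with ESC.

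**Figure D1:**
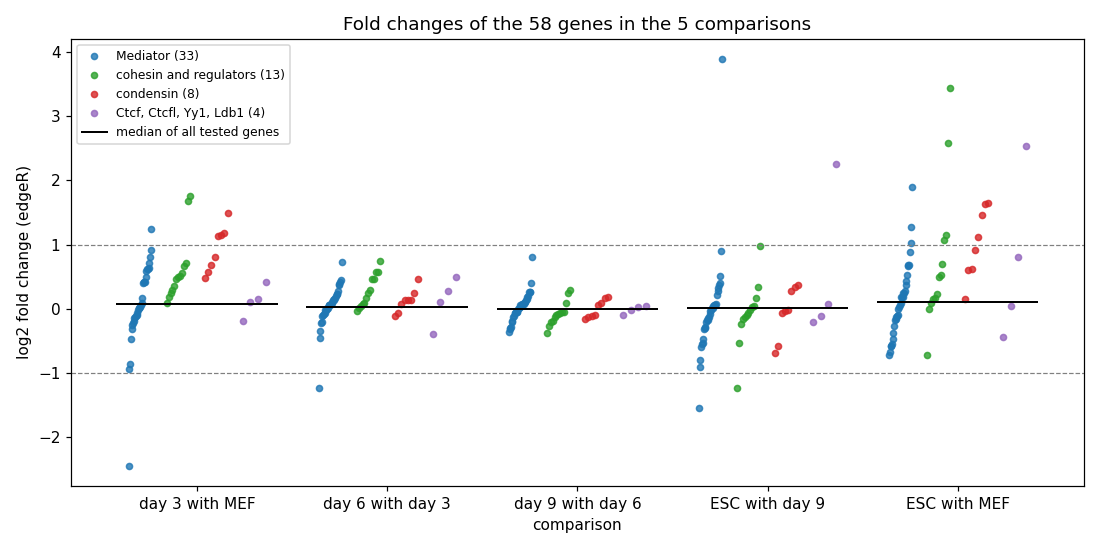
Log2 fold change of each of the 58 members (points) in the 5 comparisons, by class, with dashed lines at 2-fold and a black bar at the median of all tested genes. Condensin genes sit above that median at day 3 with MEF, where their median is 0.97, while Mediator genes centre on 0.03.

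By its median, Mediator varied least, though only slightly less than the architectural and looping genes. The ratio of the highest to the lowest group mean in CPM had a median of 1.65 over the 58 members and 1.54 over Mediator. This ratio had a median of 1.6 over the architectural and looping genes, 1.66 over cohesin and its regulators, and 2.33 over condensin. It was under 1.5 for 20 members, of which 15 were Mediator genes and none condensin. The flattest were Med29, at 1.11, and the cyclin gene Ccnc, at 1.13. The widest was a Mediator gene as well, Med12l, at 26.55. MEF was the group with the lowest mean for 33 members, all 8 condensin genes among them, and ESC for 12. ESC was also the group with the highest mean for 17. These ratios and counts were not made over all tested genes, so they compare the members only with each other.

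**Figure D2:**
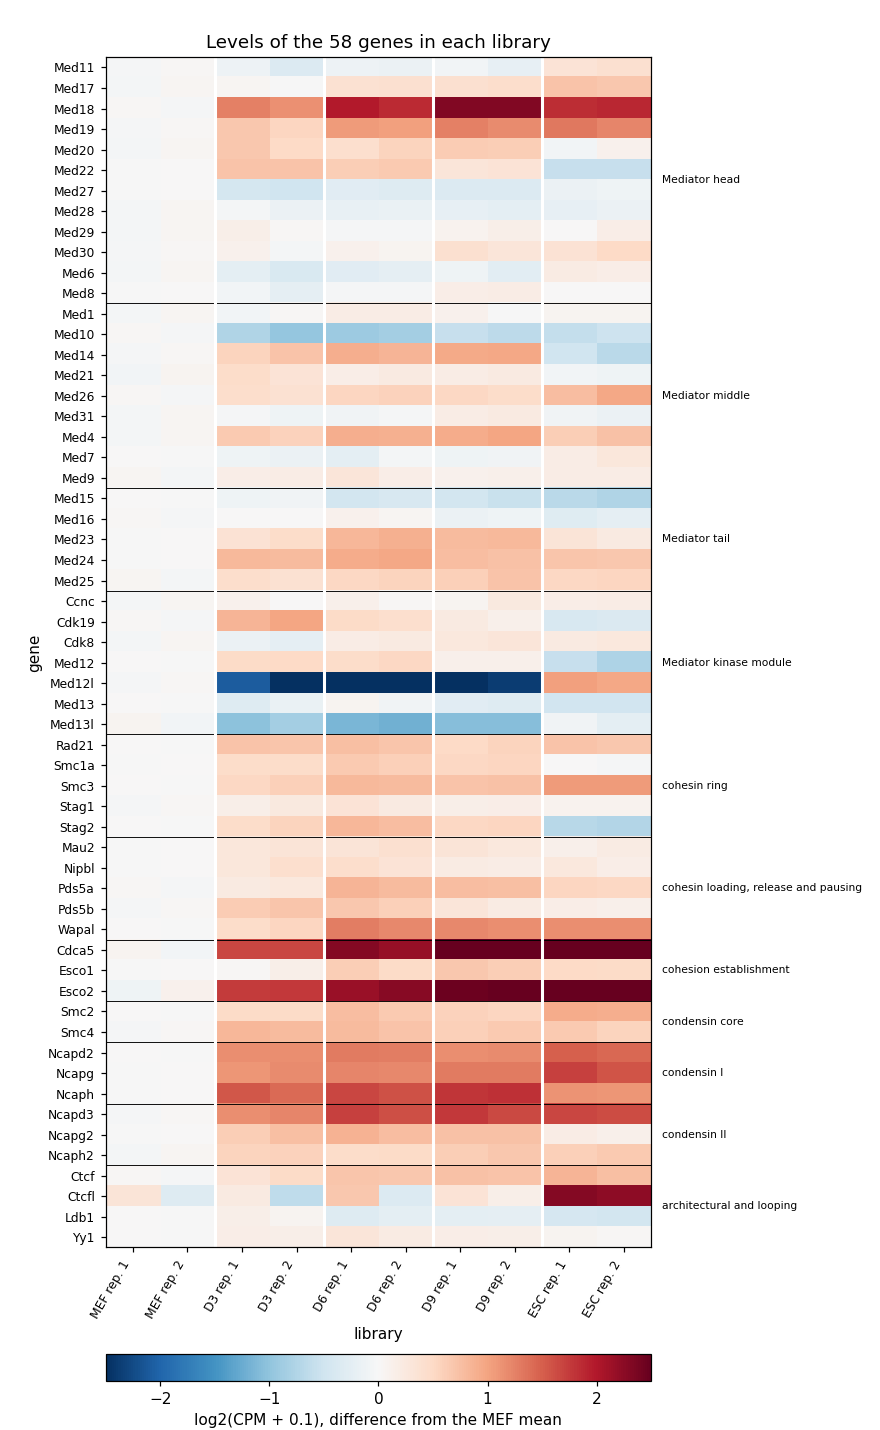
Log2(CPM + 0.1) of each member in each of the 10 libraries, as the difference from the MEF mean, with colours limited to ±2.5. The 2 libraries of a group look alike, condensin, Esco2 and Cdca5 are above MEF from day 3 to day 9, Ncapg2 is back near MEF in ESC, and Med12l is low from day 3 to day 9.

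Condensin genes were higher at day 3 without exception. All 8 genes were higher at day 3 than in MEF at adjusted p under 0.05 and 4 of them rose 2-fold, all 3 condensin I subunits and 1 of 3 condensin II subunits. Of all tested genes 35.4% were higher and 14.6% rose 2-fold. Condensin I and II share the ATPases Smc2 and Smc4 and differ in their other subunits. Condensin I reaches chromosomes after nuclear envelope breakdown, whereas condensin II is nuclear throughout the cycle. The largest rise was in Ncaph, the kleisin that closes the condensin I ring. Ncaph was at 36.5 and 37.3 CPM in MEF, 109 and 99.1 at day 3, 118 and 112 by day 6, 128 and 130.3 by day 9 and 80.4 and 79.3 in ESC. Its log2 fold change at day 3 was 1.496 (SE 0.052, adjusted p = 4e-12), and in ESC, where it was lower than at day 9 with no overlap between libraries, -0.69 (SE 0.046, adjusted p = 7.4e-09).

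Ncapd2 and Ncapg, the HEAT-repeat subunits of condensin I, rose with it and had their highest CPM in ESC. Levels of Ncapd2 were 134 and 132 CPM in MEF, 296 and 297 on day 3, 329 and 322 on day 6, 299 and 302 on day 9 and 373 and 358 in the ESC libraries. For Ncapg, the libraries gave 37.9 and 37.99 CPM in MEF, 81.2 and 85.8 at day 3, 88.9 and 87.4 by day 6, 92.96 and 94.1 by day 9 and 124 and 113 in ESC. The MEF libraries lay below all others for both genes. The day 3 log2 fold changes were 1.16 (SE 0.033, adjusted p = 4.4e-13) for Ncapd2 and 1.14 (SE 0.051, adjusted p = 8.6e-11) for Ncapg. ESC with MEF gave 1.46 (SE 0.033, adjusted p = 2e-14) and 1.64 (SE 0.05, adjusted p = 5.8e-13). Ncapg in ESC over day 9 was at 0.34, which became -0.03 with a length offset.

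In condensin II, Ncapd3 rose at day 3 and again moved up by day 6. In MEF Ncapd3 stood at 25.9 and 27.2 CPM, with 59.1 and 61.9 on day 3, 87.05 and 80.8 on day 6, 90.7 and 84.00 on day 9 and 84.1 and 81.98 in ESC. The log2 fold changes were 1.19 (SE 0.058, adjusted p = 2e-10) at day 3 and 0.47 (SE 0.05, adjusted p = 1.7e-06) from day 3 to day 6, the second short of 2-fold. With limma on log2(TPM + 1) the day 3 value was 0.95, also short of it. The other condensin II subunits stayed under 2-fold in the same comparisons, at 0.69 for Ncapg2 and 0.57 for its kleisin Ncaph2 at day 3. Ncapg2 returned near its MEF level, with 63.1 and 63.1 CPM at day 9 and 43.2 and 41.1 in ESC, against 37.7 and 38.1 in MEF.

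The shared ATPases moved less. Smc2 was at 68.2 and 67.8 CPM in MEF, 94.2 and 95.2 at day 3, 117 and 107 by day 6, 101 and 98.4 by day 9 and 129 and 128 in ESC. Levels of Smc4 were 148 and 153 CPM in MEF, 268 and 259 on day 3, 259.8 and 246 on day 6, 228 and 236 on day 9 and 238 and 221 in the ESC libraries. For both genes every later library lay above the MEF libraries. Smc2 was higher at day 3 by 0.48 (SE 0.043, adjusted p = 2.1e-07) and Smc4 by 0.81 (SE 0.043, adjusted p = 4.8e-10), both under 2-fold.

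Genes of the mitotic cell cycle moved in the same comparisons. Of 16 (among them Mki67, Top2a, Cdk1 and Mcm2), 16 were higher at day 3 at adjusted p under 0.05 and 7 rose 2-fold, with a median log2 fold change of 0.93, against 0.97 over condensin. Their summed level was 1569 and 1541 CPM in MEF, 3156 and 3178 at day 3, 3711 and 3596 by day 6, 3653 and 3688 by day 9, and 4353 and 4273 in ESC. For ESC with MEF 12 of the 16 rose. Of all tested genes 35.4% were higher at adjusted p under 0.05 and 14.6% rose at day 3, and 25.5% rose for ESC with MEF. The part of the mitotic cell cycle in the condensin result was not tested.

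**Figure D3:**
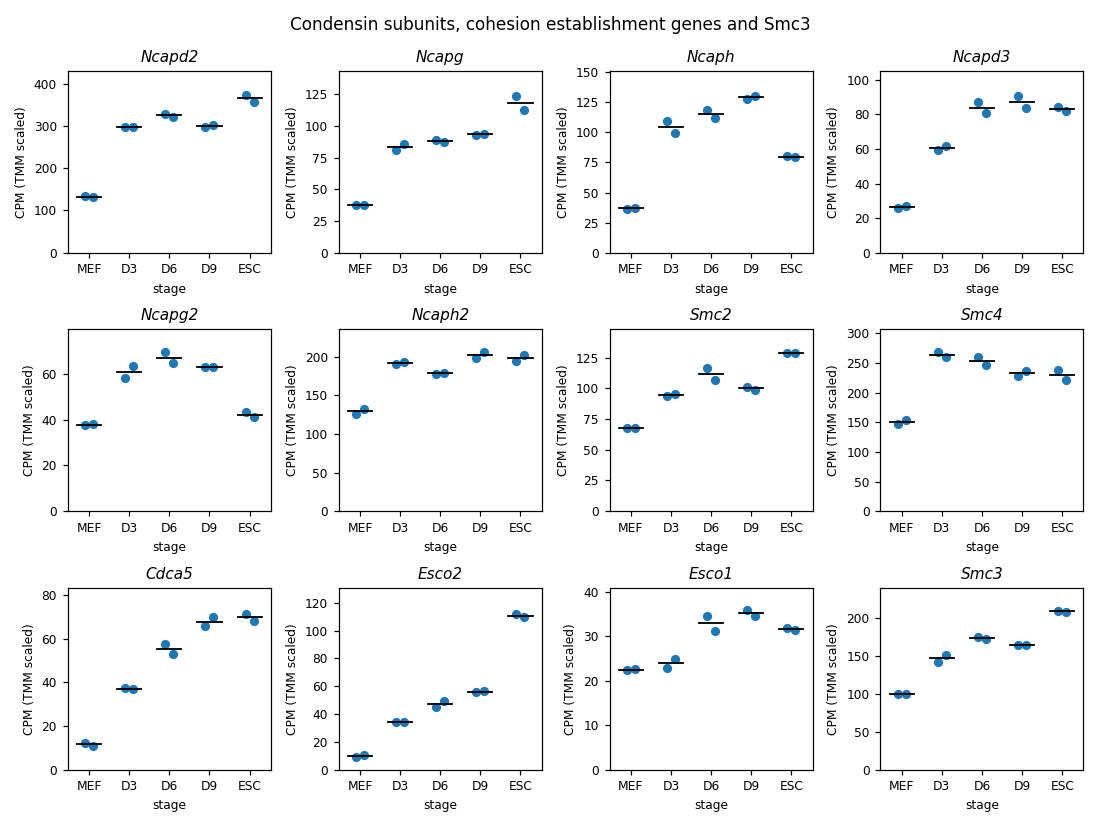
CPM per library (points, 2 per group) and group means (black lines) of condensin and cohesion establishment genes and Smc3 over the 5 groups. Ncaph is highest at day 9 and lower in ESC, whereas Esco2 is higher again in ESC than at day 9, going from 55.5 and 56.9 to 112 and 109.5 CPM.

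Cohesion establishment gave the largest rises over MEF among the 58. Esco2 encodes an acetyltransferase that locks cohesin onto sister chromatids in S phase, and Cdca5 encodes sororin, which protects cohesin from release afterwards. For Esco2, the libraries gave 9.38 and 10.9 CPM in MEF, 34.1 and 34.6 at day 3, 45.3 and 49.3 by day 6, 55.5 and 56.9 by day 9 and 112 and 109.5 in ESC. Esco2 was 3.37 times its MEF level at day 3 and 10.9 times in ESC. The log2 fold changes were 1.75 (SE 0.071, adjusted p = 2.4e-11) and 3.44 (SE 0.065, adjusted p = 3.5e-15). Its step from day 9 to ESC, 0.98 (SE 0.05, adjusted p = 4e-10), lay just under 2-fold here and above it under 4 of the alternative settings.

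In MEF Cdca5 stood at 12.3 and 11.04 CPM, with 37.4 and 37.04 on day 3, 57.8 and 53.1 on day 6, 65.9 and 69.9 on day 9 and 71.4 and 68.2 in ESC. The groups did not overlap between MEF, day 3 and day 6. Cdca5 rose by 1.68 (SE 0.07, adjusted p = 3.7e-11) at day 3 and 2.59 (SE 0.067, adjusted p = 8.7e-14) in ESC over MEF. Between day 9 and ESC it did not pass the adjusted p (0.04, SE 0.052, adjusted p = 0.53). The paralog Esco1, which acetylates cohesin outside S phase as well, did not pass the adjusted p at day 3. Esco1 was at 22.4 and 22.6 CPM in MEF, 22.9 and 24.8 at day 3, 34.5 and 31.2 by day 6, 35.8 and 34.5 by day 9 and 31.8 and 31.3 in ESC. Its log2 fold change at day 3 was 0.09 (SE 0.064, adjusted p = 0.27), and from day 3 to day 6 it was 0.46 (SE 0.061, adjusted p = 1.4e-05).

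Promoters of these genes were examined for TTTGAA, the core of the cell cycle homology region that is known from promoters of genes expressed late in the cell cycle. RefSeq windows (GRCm38.p6, 250 bases before to 50 after the start) matched 46 of the 58 members. Esco1, Esco2 and Smc4 were among the members without a window. On either strand, where the reverse strand reads TTCAAA, the 6 letters occurred in 17.9% of all 32851 windows and in at least 1 window of 20.2% of the 27025 genes that have one. They occurred in 6 of the 8 matched condensin and establishment genes (Cdca5, Ncapd2, Ncapd3, Ncapg, Ncapg2 and Smc2) and in 5 of the 38 other matched members. This grouping was made after the fold changes were known, and no test is given. The Ncapd3 match, not shown, is in a window that begins at chr9:27060166. GENCODE M21 has Ncapd3 start at 27030175 on the + strand, so that window lies inside the gene and not at this start. The 30 bases around the match are shown for 5 of the 6, 5′ to 3′ on the gene's strand, with the match in capitals.
Cdca5 (chr19:6085067-6085096, + strand): gcaaggcgggcaaTTTGAAcgTTTGAAgca
Ncapg (chr5:45669885-45669914, + strand): gcgatagttgTTTGAAaactctggcgctaa
Ncapg2 (chr12:116405406-116405435, + strand): tacgcgggtgtgTTTGAAtctggtccgagc
Ncapd2 (chr6:125191690-125191719, - strand): gccgttgaggTTTGAAcagggaattgcggg
Smc2 (chr4:52439066-52439095, + strand): gctttccatgTTCAAAacggtatagtctcc

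Cdca5 carried 2 copies, with first bases 17 and 9 bases before the RefSeq start. The match began 30 bases before the start in Ncapg, 18 in Ncapg2 and 123 in Ncapd2, all on the gene's strand. Smc2 also carried 2 copies, both on the other strand, 145 bases before and 27 bases after the start, and the first of them is shown. Transcripts in GENCODE M21 start further upstream for some of these genes, so the stretches shown for Cdca5 and Ncapg2 lie within its exons, as do 12 of the 30 bases for Ncapd2. Ncaph, the condensin gene with the largest day 3 rise, had no match in its window, and neither had Ncaph2. The 150 bases upstream of the Ncaph start are shown as the contrast, with no letters in capitals.
Ncaph (chr2:127133955-127134104, - strand): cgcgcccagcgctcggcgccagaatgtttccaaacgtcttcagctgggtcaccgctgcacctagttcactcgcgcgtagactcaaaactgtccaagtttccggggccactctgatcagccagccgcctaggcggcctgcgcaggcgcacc

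The other motifs searched were TTCCCGC, an E2F-like sequence found in 4.6% of all windows (5.3% of genes) and 9 of the 46 matched members, and the Klf-like GGGTGTGG and GGGCGTGG. GGGTGTGG occurred in 3.6% of all windows (4.1% of genes) and 1 member, Ncapg. GGGCGTGG occurred in 5.3% of all windows (6.1% of genes) and 6 members, among them Ncapd2, Ncapg2 and Ncaph. None of the 31 matches in members overlapped a match of another motif. Absence of a match says only that these letters are not in the window.

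The cohesin ring was higher at day 3 than in MEF, by less than 2-fold. All 5 genes (the ATPases Smc1a and Smc3, the kleisin Rad21 and the subunits Stag1 and Stag2, of which a ring holds either) passed the adjusted p at day 3, with log2 fold changes from 0.19 to 0.71. Of all tested genes 35.4% were higher at that threshold. In ESC the 5 ring genes parted. Smc3 rose over MEF, whereas Stag2 was lower than in MEF and fell from day 9.

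Levels of Rad21 were 186 and 185 CPM in MEF, 306 and 302 on day 3, 315 and 302 on day 6, 264 and 275 on day 9 and 305 and 298 in the ESC libraries. For Smc3, the libraries gave 99.6 and 99.05 CPM in MEF, 142 and 151 at day 3, 174 and 172 by day 6, 164 and 164 by day 9 and 208 and 208 in ESC. Rad21 reached its later level by day 3, whereas Smc3 moved up over several groups and was highest in ESC. Smc3 rose by 1.07 (SE 0.035, adjusted p = 1.3e-12) in ESC over MEF, which DESeq2 put at 0.99. In MEF Stag1 stood at 72.6 and 75.4 CPM, with 81.4 and 87.3 on day 3, 93.4 and 86.7 on day 6, 81.8 and 82.7 on day 9 and 78.4 and 78.9 in ESC. Stag1 stayed within a narrow range, with 0.09 (SE 0.047, adjusted p = 0.11) for ESC with MEF.

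Stag2 was at 112 and 109 CPM in MEF, 152 and 162 at day 3, 195 and 188 by day 6, 157 and 160.5 by day 9 and 67.9 and 66.4 in ESC. Both ESC libraries lay below all 8 others. Stag2 fell by 1.24 on the log2 scale (SE 0.04, adjusted p = 1.8e-12) from day 9 to ESC. Its log2 fold change there was -0.97 with a length offset and -0.76 or -0.80 with limma on TPM, each still below 0 at an adjusted p under 0.05 but short of 2-fold.

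The 4 X-linked members were Stag2 (X, 42149317 to 42277185, GRCm38), Smc1a (X, 152016428 to 152062694), Med14 (X, 12675369 to 12762073) and Med12 (X, 101274030 to 101297465). Med14 is the scaffold subunit that joins the Mediator modules, and Med12 activates the Mediator kinase. All 4 were lower in ESC than at day 9. Levels of Med14 were 69.2 and 71.2 CPM in MEF, 103.7 and 116 on day 3, 132 and 127 on day 6, 135 and 137 on day 9 and 49.99 and 43.7 in the ESC libraries. Med14 fell by 1.54 on the log2 scale (SE 0.061, adjusted p = 1.9e-11), and its ESC libraries lay below all others.

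For Med12, the libraries gave 81.4 and 79.4 CPM in MEF, 112 and 114 at day 3, 111 and 115 by day 6, 88.2 and 87.6 by day 9 and 54.1 and 47.1 in ESC. In MEF Smc1a stood at 141 and 142 CPM, with 196 and 193 on day 3, 223 and 213 on day 6, 203 and 205 on day 9 and 143 and 139 in ESC. Med12 was lowest in ESC, while the ESC and MEF libraries of Smc1a overlapped. Against day 9 the ESC log2 fold change was -0.80 (SE 0.053, adjusted p = 6.4e-09) for Med12 and -0.54 (SE 0.033, adjusted p = 3.2e-09) for Smc1a, both lower by less than 2-fold. Among X-linked members 2 of 4 fell, and among autosomal members 0 of 54, with none of these 54 reaching a log2 fold change of -1.

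X-linked genes were also counted as a whole. Of 746 X-linked genes tested, 17.4% were 2-fold lower and 19.0% higher in ESC than at day 9, with a median of -0.09, and of the 19220 autosomal genes 14.1% were lower, with a median of 0.01. Xist, which silences the inactive X in female cells, went between the same groups from 1103 and 1047 CPM at day 9 to 11.3 and 9.0 in ESC. Ddx3y went the other way. The part of these in the X-linked members' result was not tested.

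**Figure D4:**
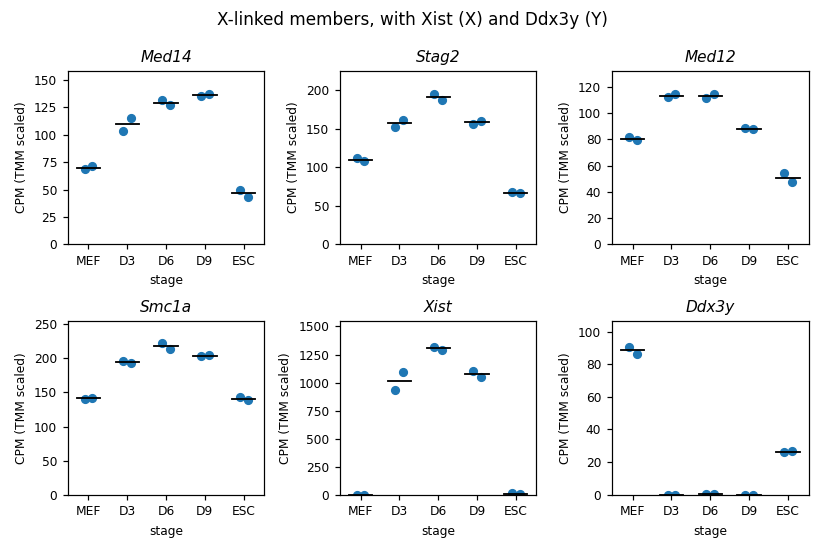
CPM per library (points, 2 per group) and group means (black lines) of the X-linked members over the 5 groups. Med14 and Stag2 are lowest in ESC, at 49.99 and 43.7 and at 67.9 and 66.4 CPM.

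Cohesin loading, release and pausing genes were higher by day 3 in all 5 cases at adjusted p under 0.05, none by 2-fold. The share of all tested genes higher at that adjusted p was 35.4%. Nipbl and Mau2 form the loader. Nipbl was at 81.5 and 81.9 CPM in MEF, 99.6 and 109.7 at day 3, 111 and 104.2 by day 6, 94.5 and 92.5 by day 9 and 98.7 and 92.2 in ESC. Levels of Mau2 were 59.3 and 60.2 CPM in MEF, 72.4 and 74.4 on day 3, 75.2 and 78.9 on day 6, 74.8 and 72.03 on day 9 and 65.5 and 68.7 in the ESC libraries. Both loader genes were lowest in MEF, with log2 fold changes of 0.36 (SE 0.051, adjusted p = 2.6e-05) and 0.29 (SE 0.044, adjusted p = 3.3e-05) at day 3. Their means were highest at day 6, but the step from day 3 did not pass (0.04, adjusted p = 0.52, for Nipbl and 0.07, adjusted p = 0.18, for Mau2).

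The release factor Wapal and its partner Pds5a had their largest step between day 3 and day 6. For Wapal, the libraries gave 91.6 and 90.2 CPM in MEF, 125 and 131 at day 3, 221 and 208 by day 6, 208 and 204 by day 9 and 203 and 202 in ESC. In MEF Pds5a stood at 144 and 140.5 CPM, with 166 and 172 on day 3, 256 and 247 on day 6, 243 and 240.4 on day 9 and 207 and 205 in ESC. For Wapal the log2 fold change was 0.75 (SE 0.038, adjusted p = 5.6e-10) from day 3 to day 6 and 1.16 (SE 0.039, adjusted p = 1.8e-12) for ESC with MEF, the latter a rise. Pds5a gave 0.58 (SE 0.033, adjusted p = 2.1e-09) from day 3 to day 6. Pds5b was at 63.98 and 66.7 CPM in MEF, 102 and 106 at day 3, 103.8 and 99.1 by day 6, 80.5 and 75.1 by day 9 and 73.5 and 71.5 in ESC. The paralog Pds5b was highest at day 3 and day 6 and closer to MEF afterwards, and its small difference between ESC and MEF (0.15) was of the opposite sign on the TPM scale (-0.11 and -0.13) and with a length offset (-0.21).

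For Wapal, counts and TPM gave opposite pictures of ESC. On read counts the difference between ESC and day 9 did not pass (-0.03, SE 0.037, adjusted p = 0.55), whereas limma on log2(TPM + 1) gave 1.34, limma on log2(TPM + 0.1) gave 1.35 and edgeR with a length offset gave 1.18. One transcript carried the difference. Wapal-005, a processed transcript of 382 bases, took 1.83% to 2.76% of Wapal reads in the 8 libraries from MEF to day 9 and 14.4% and 12.7% in ESC. Its effective length is 133 bases, so each of its reads counts for much in TPM. Wapal stood at 54.7 and 54.9 TPM at day 9 and 149 and 131 in ESC, and without that transcript at 40.4 and 40.4 and at 41.97 and 38.15. In MEF it stood at 22.9 and 19.95 TPM without that transcript, so on this scale the ESC mean was less than 2-fold above that of MEF. The reads of Wapal-005 also enter the rise of Wapal in ESC over MEF on read counts. They made up 989.2 and 966.1 of 6876 and 7582 Wapal reads in ESC, and 68.5 and 78.4 of 2481 and 2958 in MEF. The rise on read counts was not tested without them.

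Of the 26 Mediator head, middle and tail genes, Med18, Med19 and the X-linked Med14 passed 2-fold in at least 1 comparison. Of the 33 Mediator genes 1 rose (Med18) and 1 fell (Med12l) by 2-fold at day 3, against 14.6% and 14.5% of all tested genes. At adjusted p under 0.05, 14 were higher and 9 lower, against 35.4% and 29.5% of all tested genes. Per length, the summed level of the 33 was 428.2 ± 3.89 TPM in MEF (mean ± SD, n = 2), 453.5 ± 1.73 at day 3, 474.1 ± 7.16 by day 6, 456.5 ± 7.84 by day 9 and 493.5 ± 0.297 in ESC. The condensin I subunits, summed the same way, went from 79.2 ± 5.62 to 201.8 ± 6.34 TPM between MEF and day 3. Ncapd2 held 61.4 and 155.8 TPM of these sums. Its coding transcript of 4629 bases took 56.3% to 68.3% of Ncapd2 reads over the libraries. The other Ncapd2 transcripts are 480 to 894 bases long, so, as with Wapal-005, each of their reads counts for much in TPM. Their part in the sums was not separated.

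Levels of Med18 were 2.29 and 2.17 CPM in MEF, 5.49 and 5.03 on day 3, 9.08 and 8.38 on day 6, 11.5 and 11.5 on day 9 and 8.22 and 8.44 in the ESC libraries. Med18, a head subunit, was among the least expressed members in MEF, and its MEF libraries lay below all others. It rose by 1.24 (SE 0.129, adjusted p = 8.8e-07) at day 3 and 1.90 (SE 0.123, adjusted p = 2.7e-09) in ESC over MEF, with its highest level at day 9. The day 3 value was short of 2-fold with limma on log2(TPM + 1), at 0.78. For Med19, the libraries gave 19.5 and 20.5 CPM in MEF, 32.1 and 29.2 at day 3, 41.7 and 40.6 by day 6, 47.8 and 45.5 by day 9 and 50.02 and 46.9 in ESC. Med19, another head subunit here, moved up in steps under 2-fold and reached 1.27 (SE 0.062, adjusted p = 9.9e-11) in ESC over MEF.

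In MEF Med1 stood at 66.4 and 70.2 CPM, with 65.5 and 70.00 on day 3, 77.9 and 77.3 on day 6, 74.03 and 67.97 on day 9 and 71.2 and 71.1 in ESC. Med1, the middle subunit that nuclear receptors bind, did not pass at day 3 (-0.01, SE 0.05, adjusted p = 0.84) and was higher at day 6 by 0.20. Beside Med1, Med14, Med18 and Med19, the other 22 head, middle and tail genes passed 2-fold in none of the comparisons with TMM scaling. Among them were differences in both directions. Med24 in the tail was higher at day 3 by 0.80 and Med10 in the middle was lower (log2 fold change -0.86). Med22 in the head was higher at day 3 by 0.71 and lower in ESC than at day 9 (log2 fold change -0.90). The 22 log2 fold changes at day 3 ran from -0.86 (Med10) to 0.80 (Med24).

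In the kinase module, the kinase gene Cdk19 was higher at day 3. Its paralog Cdk8 was slightly lower with TMM scaling, but not with scaling by total reads. Cdk19 was at 32.2 and 30.97 CPM in MEF, 56.8 and 62.5 at day 3, 44.1 and 42.4 by day 6, 37.1 and 34.3 by day 9 and 23.8 and 24.6 in ESC. Levels of Cdk8 were 48.4 and 51.5 CPM in MEF, 45.2 and 42.5 on day 3, 56.8 and 58.4 on day 6, 59.7 and 61.6 on day 9 and 58.4 and 59.8 in the ESC libraries. Cdk19 peaked at day 3, above every other library, and was lowest in ESC. Its log2 fold change was 0.92 (SE 0.059, adjusted p = 4.4e-09) at day 3, under 2-fold, and that of Cdk8 was -0.19 (SE 0.049, adjusted p = 0.004), which became 0.02 when libraries were scaled by total reads alone. For Ccnc, the libraries gave 31.6 and 33.8 CPM in MEF, 35.4 and 33.1 at day 3, 35.9 and 33.4 by day 6, 34.5 and 38.7 by day 9 and 36.8 and 37.3 in ESC. Ccnc, the cyclin that pairs with both kinases, did not pass the adjusted p between any neighbouring groups in the series, with its largest value there 0.08.

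Med12l and Med13l, paralogs of Med12 and Med13, were both low in the induced cells. In MEF Med12l stood at 3.25 and 3.35 CPM, with 0.7 and 0.503 on day 3, 0.323 and 0.181 on day 6, 0.321 and 0.556 on day 9 and 6.83 and 6.57 in ESC. The day 3, 6 and 9 libraries held 6 to 26 reads each for it. Med12l fell by 2.44 on the log2 scale (SE 0.279, adjusted p = 2.4e-06) at day 3, and rose by 3.89 (SE 0.282, adjusted p = 1.8e-08) in ESC over day 9. Its change from day 3 to day 6, -1.24 (SE 0.388, adjusted p = 0.014), did not hold without day 3 replicate 1 (-0.98, adjusted p = 0.11) or without day 6 replicate 2 (-0.90, adjusted p = 0.12). Its rise in ESC over MEF, 1.02 (SE 0.227, adjusted p = 0.00094), was short of 2-fold without ESC replicate 1 (0.991), without MEF replicate 1 (0.998), with DESeq2 (0.944) and with limma on log2(TPM + 0.1) (0.87). On log2(TPM + 1), where the pseudocount exceeds its TPM, Med12l passed 2-fold in no comparison, at -0.17 for day 3 with MEF, 0.46 for ESC with day 9 and 0.26 for ESC with MEF, and on log2(TPM + 0.1) the day 3 value was -0.91.

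Med13l was at 97.6 and 87.9 CPM in MEF, 45.6 and 50.99 at day 3, 42.1 and 40.4 by day 6, 44.4 and 44.1 by day 9 and 87.5 and 77.9 in ESC. Med13l was lower than MEF on day 3 by a log2 fold change of -0.94 and higher in ESC than at day 9, at 0.90 (SE 0.067, adjusted p = 2.5e-08). Without day 3 replicate 2 the day 3 value was -1.02, and without MEF replicate 2 it was -1.015, both past 2-fold. Levels of Med13 were 86.6 and 84.5 CPM in MEF, 68.5 and 75.8 on day 3, 89.4 and 80.5 on day 6, 70.7 and 67.9 on day 9 and 61.7 and 61.7 in the ESC libraries. Med13 varied less and was lowest in ESC. The fibroblast and feeder markers were likewise high in MEF, low at day 6 and day 9 and higher in ESC, where 12 of the 13 rose over day 9. Of all tested genes 18.6% rose there. The part of feeder cells in the ESC values of Med12l and Med13l was not tested.

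Paralog shares were computed within each library from TPM, which allows for length, and carry no test. Cdk8 made up 79.4% and 80.8% of Cdk8 plus Cdk19 in MEF, 67.9% and 64.3% at day 3, 75.7% and 78.1% by day 6, 79.4% and 81.4% by day 9, and 85.7% and 85.9% in ESC. The day 3 libraries lay below all others. Esco2 made up 36.5% and 42.05% of Esco1 plus Esco2 in MEF, 68.6% in both day 3 libraries and 84.4% and 84.3% in ESC. The establishment pair thus changed order between MEF and day 3. Stag2 made up 70.5% and 65.0% of Stag1 plus Stag2 in MEF, 73.7% and 74.6% at day 6, and 51.8% and 50.4% in ESC.

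Med13 made up 56.9% ± 1.19 (SD, n = 2) of Med13 plus Med13l in MEF, 71.1% ± 2.41 at day 6 and 47.6% ± 1.72 in ESC. Med12 made up between 96.8% and 99.9% of Med12 plus Med12l in the group means. Pds5a went from 78.3% ± 1.04 of the Pds5 pair in MEF to 86.6% ± 0.938 in ESC. Condensin I subunits made up 52.0% ± 2.46 of condensin I and II together in MEF and 63.4% ± 1.89 at day 3, and between 63.4% and 64.7% from then on. In MEF, Ncapd2 held 61.4 of the 79.15 TPM of condensin I, and Ncaph2 held 68.05 of the 73.09 TPM of condensin II. This share therefore mostly follows Ncapd2, with its short transcripts, and Ncaph2. Computed from reads it was 51.8% in MEF and 60.7% at day 3.

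**Figure D5:**
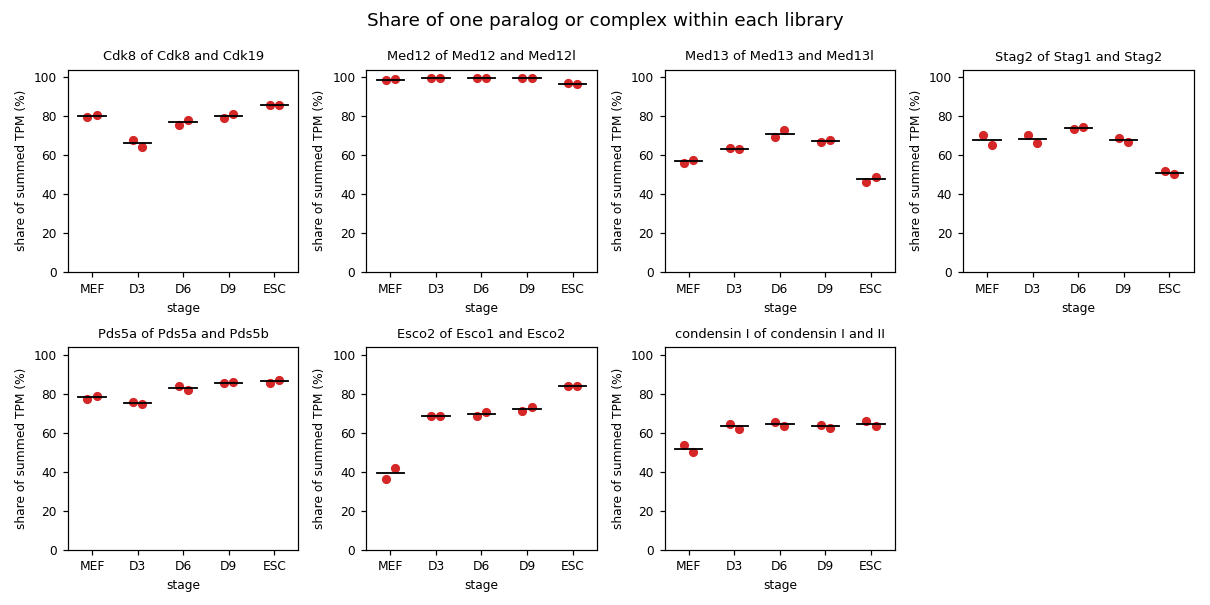
Share of the first-named paralog within its pair, in percent of TPM, per library (points, 2 per group) with group means (black lines). Esco2 climbs from 39.3% to 68.6% between MEF and day 3, and Stag2 drops to 51.1% in ESC.

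Ctcf was higher at each group mean from MEF to ESC. For Ctcf, the libraries gave 75.9 and 72.04 CPM in MEF, 94.4 and 103.6 at day 3, 120.4 and 119 by day 6, 122 and 122 by day 9 and 134 and 125 in ESC. The day 3 and day 6 steps passed the adjusted p (0.42 and 0.27), and the later ones did not. For ESC with MEF the log2 fold change was 0.81 (SE 0.049, adjusted p = 1.5e-09), under 2-fold with TMM scaling and 1.15 with scaling by total reads. Ctcfl, the germ-line paralog known as BORIS, had few reads before ESC. It had 12 and 8 reads in MEF, 15 and 6 on day 3, 20 and 8 on day 6, 14 and 15 on day 9, and 69 and 72 in ESC. Ctcfl rose by 2.25 (SE 0.447, adjusted p = 0.00046) from day 9 to ESC and by 2.54 (SE 0.471, adjusted p = 0.00021) from MEF. With limma on log2(TPM + 1) both were short of 2-fold (0.32 and 0.33), and a minimum of 10 CPM left the gene out.

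Yy1 and Ldb1, a zinc finger protein and an adaptor that both bridge enhancers and promoters, differed by less than 2-fold throughout. In MEF Yy1 stood at 72.7 and 70.8 CPM, with 80.1 and 79.7 on day 3, 88.8 and 82.8 on day 6, 80.9 and 79.2 on day 9 and 74.98 and 72.9 in ESC. Ldb1 was at 159 and 159 CPM in MEF, 176 and 166 at day 3, 127 and 135 by day 6, 134 and 137 by day 9 and 119 and 116 in ESC. Yy1 was highest at day 6 and Ldb1 at day 3. Ldb1 was lower at day 6 than at day 3, at -0.39 (SE 0.039, adjusted p = 8.7e-07), and lower in ESC than in MEF, at -0.44 (SE 0.039, adjusted p = 1.2e-07).

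Genes around these complexes were taken as fixed lists. Cohesin cleavage and protection (6 of 7 listed genes found) had 3 rises at day 3 and 5 in ESC over MEF. Of all tested genes 14.6% and 25.5% rose in these comparisons. The separase gene Espl1, which cuts Rad21, went from 28.3 and 28.3 CPM in MEF to 73.5 and 70.7 at day 3 and 164 and 165 in ESC, a rise by day 3 of 1.35 on the log2 scale (SE 0.043, adjusted p = 1.9e-12). The shugoshin gene Sgol2a, which protects cohesin at centromeres, rose by 1.503 on the log2 scale (SE 0.043, adjusted p = 4.8e-13) and the helicase gene Ddx11 by 1.45 on the log2 scale (SE 0.077, adjusted p = 5.4e-10). Sgol1, the other shugoshin, reached 1.45 on the log2 scale (SE 0.059, adjusted p = 1.3e-11) in ESC over MEF.

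Meiotic cohesin and axis genes (8 found, 7 tested) had summed levels of 6.8 and 6.9 CPM in MEF, 33.7 and 33.8 at day 9, and 187.7 and 174.7 in ESC. Of the 7 tested, 6 rose in ESC over day 9, where 18.6% of all tested genes did. Rec8 was lower, at -0.46 on the log2 scale (SE 0.12, adjusted p = 0.0031). Sycp2 was at 1.59 and 1.25 CPM in MEF and 1.83 and 1.25 in ESC, so its rise over day 9 returned it to the MEF range. Stag3, the meiotic counterpart of Stag1 and Stag2, was at 13.7 and 12.8 CPM at day 9 and 86.3 and 79.8 in ESC, a rise of 2.65 on the log2 scale (SE 0.065, adjusted p = 1e-13). Rec8, the meiotic kleisin, and Stag3 rose at day 3 already, Rec8 by 5.26 on the log2 scale (SE 0.3, adjusted p = 1.2e-09), from 0.111 and 0.152 to 6.14 and 4.32 CPM. Sycp1 fell there, at -1.04 on the log2 scale (SE 0.204, adjusted p = 0.00044), from 2.36 and 2.65 to 1.43 and 1.005 CPM. The median log2 fold change of the 7 at day 3 was 0.07.

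The Smc5/6 complex is the third of the SMC rings. Of its 5 genes found, Nsmce4a alone passed 2-fold in any comparison, at 1.28 on the log2 scale (SE 0.051, adjusted p = 1.2e-11) in ESC over MEF. Among Ldb1 and Ctcf partners (11 tested) 1 rose at day 3, where 14.6% of all tested genes did. This was the single-stranded DNA-binding cofactor gene Ssbp2, by 1.54 on the log2 scale (SE 0.053, adjusted p = 3.6e-12). In ESC over day 9, 3 of the 11 rose and 4 fell, against 18.6% and 14.3% of all tested genes. The 3 that rose were Isl1, Lhx2 and Lmo2, all with little RNA. Their highest value in ESC was 2.003 CPM, for Lmo2. Ssbp3, which stabilises Ldb1, was at 185 and 186 CPM at day 9 and 68.5 and 71.6 in ESC and fell by 1.41 on the log2 scale (SE 0.035, adjusted p = 1.3e-13), where the log2 fold change of Ldb1 itself was -0.20.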

How the data were processed

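Poly(A) RNA of 10 libraries (TruSeq stranded kit, single reads of 50 nt, 1 batch label) was quantified by the authors with Salmon 0.8.2 on mm10, per the submitters' processing notes; the annotation, index and options are not given in the sources used here. The authors' deposited tables hold estimated counts, not normalized, and TPM, scaled by effective length to the same total per library, for 109617 transcripts. Effective lengths were identical in all tables.

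Estimated counts were summed to 45706 genes and rounded. edgeR 4.0.16 (R 4.3.3) filterByExpr (minimum count 10, minimum total 15) kept 20165 genes. After TMM scaling, the quasi-likelihood test was fitted to all 10 libraries with group means, and p-values were adjusted by Benjamini-Hochberg over all genes tested. Standard errors were derived from the fold change and its F statistic (absolute log2 value divided by the root of F). The common biological coefficient of variation was 3.75%. An exact permutation test of 2 libraries against 2 cannot go below p = 0.333, so none is given. Replicate pairs differed by more than sampling noise (chi-square per degree of freedom 2.70 to 4.91), and each library counts as 1. Total estimated reads per library were 29585876 to 38275024, and the precision given covers counting and library spread only.

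The members and lists were chosen with earlier results of these data known. Values per library are given for members past both thresholds in at least 1 comparison at 5 CPM or more, and for a list of 24 symbols whatever their values. The other named genes of the same complexes were picked after their values were seen. Coordinates of all 58 members were looked up by gene ID in GENCODE M21 (GRCm38); promoters are from RefSeq (GRCm38.p6). Alternatives were no low-count filter, at least 10 CPM in 2 libraries, DESeq2 1.42.0, no TMM, a length offset, limma 3.58.1 on log2(TPM + 1) and log2(TPM + 0.1), only the 2 groups compared, no fold change minimum, a replicate block, and leaving out each library. Figures used matplotlib 3.10.9.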

Additional observations from a re-analysis of the deposited data

How the results depend on the processing

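Read depth limits Med12l and Ctcfl, which have few reads before ESC. Without a fold change minimum, members higher and lower numbered 37 and 9 (day 3 with MEF), 27 and 7 (day 6 after day 3), 10 and 15 (day 9 after day 6), 15 and 24 (ESC with day 9), and 36 and 12 (ESC with MEF). Members lower at day 3 numbered 1, against 2 with DESeq2 or with only the groups compared, 0 with limma on log2(TPM + 1) or log2(TPM + 0.1), and 1 to 2 with each library left out (2 without MEF replicate 2 or day 3 replicate 2, which adds Med13l). Members lower from day 3 to day 6 numbered 1, against 0 with at least 10 CPM in 2 libraries, with either limma fit or with only the groups compared, and 0 to 1 with each library left out (0 without day 3 replicate 1 or day 6 replicate 2). For ESC with day 9, the 2 higher were Med12l and Ctcfl. With at least 10 CPM both were filtered out and the count was 1 (Esco2, 1.03), with log2(TPM + 1) neither passed and it was 1 (Wapal), and with log2(TPM + 0.1) it was 5. The 2 lower became 1 with either limma fit or a length offset. For ESC with MEF, 12 higher became 19 with library size without TMM, and 11 to 12 with each library left out. The 7 higher at day 3 became 5 with log2(TPM + 1), which lost Med18 and Ncapd3, and 10 with library size without TMM, which added Cdk19 and Smc4 among others. Leaving out a library gave 7 to 7 there, 2 to 2 in both directions for ESC with day 9, and 0 to 0 for the remaining counts. Library size without TMM also put the median over all tested genes at a log2 fold change of 0.29 (day 3 with MEF), 0.10 (day 6 after day 3) and 0.44 (ESC with MEF).

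Of 2135 alternative values of the 33 members with values per library, 39 changed their call: 21 lost it, 15 gained it and 3 reversed. The 3 were Wapal for ESC with day 9, at 1.34 with log2(TPM + 1), 1.35 with log2(TPM + 0.1) and 1.18 with a length offset, against -0.03, where the short transcript Wapal-005 carries the TPM difference. Of 1554 alternative values of fold changes with an adjusted p under 0.05, 10 had the other sign, all under 1.5-fold. With estimated counts in place of TPM, 33 of 35 paralog shares moved by more than their SD. For the other changes the cause was not tested. The replicate block left the counts at 7 and 1, 0 and 1, 0 and 0, 2 and 2, and 12 and 0, in the order of the comparisons. The replicate numbers did not pair the libraries: correlations of same-numbered libraries' deviations ran from -0.02 to 0.02.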
